A study of Mus musculus with 6 samples.

Results

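ADAM proteases are zinc metalloproteases anchored in the cell membrane that release the outer parts of growth factor precursors, receptors and adhesion molecules, a step called shedding. ADAMTS proteases are their secreted relatives, which carry thrombospondin repeats and cut proteoglycans and other proteins of the extracellular matrix. In the ovary ADAMTS1 is known for cutting versican around ovulation, and shedding by ADAM17 is known in ovarian cancer for the release of ligands of the epidermal growth factor receptor. The RNA of 10 listed genes of these families, 5 ADAM genes (Adam9, Adam10, Adam12, Adam15 and Adam17) and 5 ADAMTS genes (Adamts1, Adamts4, Adamts5, Adamts9 and Adamts12), was followed by name among the 35275 genes of the deposited table, and all 10 were found there.

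The cells were ID8-KMF, a mouse ovarian cancer line of C57Bl6/J origin obtained by passage of ID8 cells in mice. In all 6 libraries the cells were Rgnef-/-, that is, they lacked the gene of the guanine nucleotide exchange factor Rgnef (Arhgef28). The 3 knockout libraries came from cells of the genotype Rgnef-/- alone, and the 3 GFP-Rgnef libraries from Rgnef-/- cells given GFP-tagged Rgnef on a lentivirus. Both were subconfluent on dishes coated with 0.2% Matrigel, and the groups were set side by side to see what changes in RNA when Rgnef is put back. The lentivirus, the tag and Rgnef came together and cannot be told apart, cells with unedited Rgnef were not analysed here, and the labels do not say whether a group was 1 clone or whether its libraries were separate cultures, so the p-values rest on library-to-library spread that may be technical only.

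All values are FPKM, fragments per kilobase of gene model scaled to the library's depth, and implied 15898965 to 17977069 reads per library. Arhgef28 stood at 50.02 to 57.2 FPKM in the GFP-Rgnef libraries and at 0.110 to 0.134 in the knockout libraries, as labelled. Ovarian surface and mesothelial markers were present: Krt8, Krt18, Krt19, Wt1, Msln and Upk3b stood above 40 FPKM in all libraries, while Krt7 and Lrrn4 reached at most 0.307 and 0.186 FPKM. Of the 6 tested, Krt18 was called lower in knockout and 0 higher (median -0.04). Leukocyte markers summed to 2.18 to 3.49 FPKM with GFP-Rgnef and 2.52 to 3.83 without, with Ptprc at no more than 0.0179. Only 1 of the 7 markers was tested. It reached 3.81 FPKM, nearly the whole of the largest sum, and was not called (difference 0.08). Of the endothelial markers Tek alone was abundant, at 103.8 ± 7.15 FPKM with GFP-Rgnef and 124 ± 33.6 without (SD, n = 3), and Pecam1, Cdh5, Kdr and Emcn stayed at or below 0.217. Fibroblast markers summed to 47.1 to 71.2 FPKM with GFP-Rgnef and 33.8 to 44.2 without, a sum made up mostly of Dcn, the only one called (lower). The other tested fibroblast markers, Pdgfra and Col1a1, had differences of 0.49 and 1.20 that were not called (limma adjusted p = 0.114 and 0.0510), and erythroid markers to at most 0.604. Library 3 was the lowest in both groups for 22.2% of the 11500 tested genes and the highest in both for 26% of them. These shares were not worked out for the other libraries.

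All ADAM and ADAMTS proteases cut with a zinc ion held by histidines next to a catalytic glutamate. The coding bases of that site, 33 in each gene, are shown for the 6 members with enough RNA to be tested and for Adamts4 and Adamts9, because they code for the part that does the cutting. They were read 5′ to 3′ from the GENCODE M21 transcript with the longest coding sequence (GRCm38, the assembly of mm10), the histidine and glutamate codons are in capitals, and where a site lies in 2 exons the coordinates span the intron between them.
Adam9, chr8:24990326-24990358, minus strand, exon 11: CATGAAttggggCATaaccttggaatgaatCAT
Adam10, chr9:70754296-70761585, plus strand, exons 9 and 10: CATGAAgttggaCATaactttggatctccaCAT
Adam15, chr3:89344780-89344812, minus strand, exon 11: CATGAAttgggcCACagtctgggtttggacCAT
Adam17, chr12:21336732-21336764, minus strand, exon 12: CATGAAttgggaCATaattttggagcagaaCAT
Adamts1, chr16:85799191-85799545, minus strand, exons 3 and 4: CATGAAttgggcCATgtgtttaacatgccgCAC
Adamts4, chr1:171253210-171253915, plus strand, exons 3 and 4: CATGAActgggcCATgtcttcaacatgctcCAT
Adamts5, chr16:85878015-85887826, minus strand, exons 2 and 3: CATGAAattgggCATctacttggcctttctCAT
Adamts9, chr6:92905285-92908493, minus strand, exons 8 and 9: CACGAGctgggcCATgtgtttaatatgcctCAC

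Bases were compared, not amino acids. Codons that differ can code for the same amino acid, so the counts do not rank the proteases by likeness of the site. Among the ADAM genes the pair with the most bases in common was Adam10 and Adam17, with 26 of 33 the same. Adamts1 shared 28 bases with Adamts9 and 27 with Adamts4, and these 3 genes had an asparagine codon at codon 8 of the site, where the other 7 members had a glycine codon. Adamts5 shared fewer bases with them, 20 with Adamts1, 19 with Adamts4 and 18 with Adamts9. The most it shared with any member were 23, with Adam9.

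Of the 10 members, 2 had higher RNA in the knockout libraries: Adamts5, by 3.53-fold in mean FPKM, and Adam10, by 1.36-fold. None was lower, 4 did not pass the test (Adam9, Adam15, Adam17 and Adamts1), and 4 were too low to be tested (Adam12, Adamts4, Adamts9 and Adamts12). In RNA from a whole culture, fewer cells with a transcript and less of it per cell cannot be told apart. The test was limma on log2(FPKM + 1) for genes averaging 0.5 FPKM or more, with a call at an adjusted p below 0.05, and differences are knockout minus GFP-Rgnef. Among all 11500 genes tested 13.4% were called, 8.04% higher and 5.34% lower. The median difference of the 6 tested members was 0.26 against -0.02 for all tested genes. The 10 members together summed to 289 to 307 FPKM in the GFP-Rgnef libraries and to 358 to 433 in the knockout libraries, and most of that gap came from Adamts1 and Adam10.

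**Figure D1:**
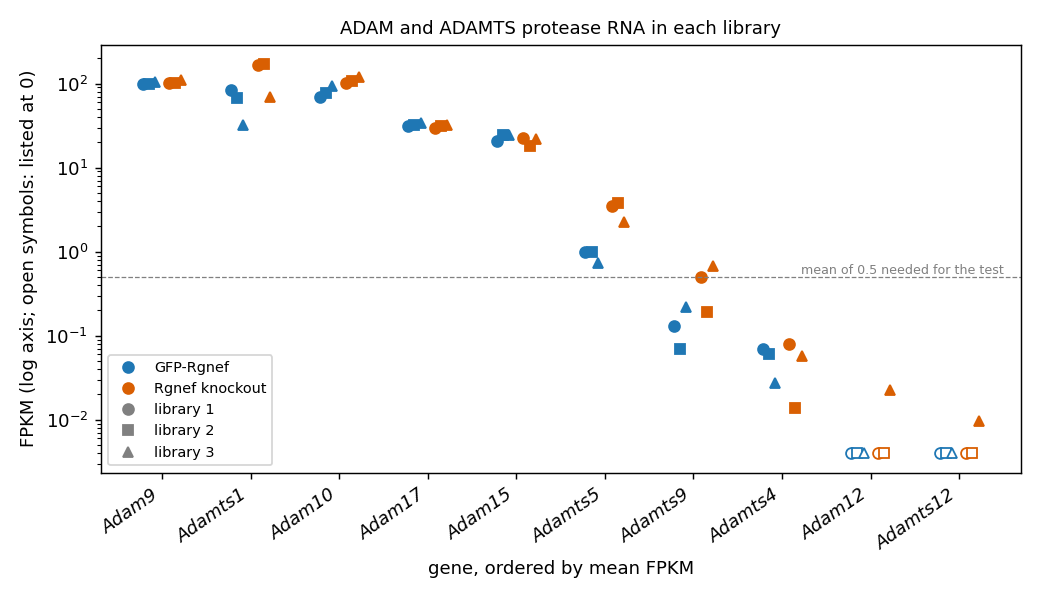
FPKM of the 10 members (log axis) in each library, with GFP-Rgnef libraries in blue, knockout libraries in orange and the library number given by the shape; open symbols mark values listed at 0. Adam9, Adamts1 and Adam10 lie highest, the knockout libraries of Adamts5 lie above its GFP-Rgnef libraries, and Adamts9, Adamts4, Adam12 and Adamts12 lie near or below a mean of 0.5.

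Adam10 (ENSMUSG00000054693, GRCm38 chromosome 9, 70678997 to 70780229, plus strand, protein coding) encodes the protease that makes the ligand-induced cut of Notch receptors and sheds cadherins and betacellulin. It stood at 69.1, 78.3 and 94.1 FPKM in the GFP-Rgnef libraries 1, 2 and 3 and at 101, 107 and 121 FPKM in the knockout libraries 1, 2 and 3. The knockout libraries all lay above the GFP-Rgnef libraries, and library 3 was the highest of each group. Such a separation was found for 33.4% of all tested genes, and for 16.7% with the knockout libraries on top. The difference was 0.45 (SE 0.117, limma adjusted p = 0.0400), from 2577 to 3561 reads against 3985 to 4437.

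The Adam10 call was close to the threshold. It was lost when any library other than GFP-Rgnef 3 was left out (limma adjusted p from 0.0614 to 0.125, differences from 0.35 to 0.51) and kept with both libraries numbered 3 left out (0.50, limma adjusted p = 0.00334), where 11.1% of all tested genes were called higher. Adam10 lies on chromosome 9, where 36.6% of 639 tested genes were called higher and 1.25% lower, with a median difference of 0.28. With the median deviation of each chromosome removed from each library, the difference of Adam10 was 0.16 (SE 0.114, limma adjusted p = 0.472), and 7.67% of all tested genes were then called, 4.3% higher.

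Adam17 (ENSMUSG00000052593, chromosome 12, 21323509 to 21373632, minus strand) encodes the main sheddase of tumour necrosis factor and of several ligands of the epidermal growth factor receptor. It stood at 31.7, 32.4 and 34.01 FPKM in GFP-Rgnef libraries 1, 2 and 3 and at 29.96, 31.3 and 32.3 in the knockout libraries. The groups overlapped, and the difference of -0.07 (SE 0.068, limma adjusted p = 0.587) was within the spread between libraries. The exons of Adam17 share 311 bases with Iah1, whose reads may be counted with it.

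Adam9 (ENSMUSG00000031555, chromosome 8, 24949611 to 25016927, minus strand), a widely expressed sheddase, stood at 99.6, 98.1 and 104 FPKM in GFP-Rgnef libraries 1, 2 and 3 and at 103, 102 and 110.1 in the knockout libraries. Its groups overlapped (difference 0.06, SE 0.062, limma adjusted p = 0.579). Adam15 (ENSMUSG00000028041, chromosome 3, 89338542 to 89349996, minus strand), whose disintegrin domain binds integrins, stood at 20.8, 24.2 and 24.2 FPKM with GFP-Rgnef and at 22.4, 18.3 and 21.7 without. These groups overlapped too (difference -0.14, SE 0.0999, limma adjusted p = 0.397). For Adam9, Adam15 and Adam17 a difference was not detectable against the spread between libraries, which does not show that the groups were alike.

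Adam12 (ENSMUSG00000054555, chromosome 7, 133883199 to 134232146, minus strand), a protease of mesenchymal and tumour stroma cells, was listed at 0 in 5 of 6 libraries and at 0.0228 FPKM in knockout library 3. That value is 1 read if the smallest length that gives a whole read is taken, since a single value above 0 does not fix the length. A count of 0 allows up to 3 reads in a library, for counting error only.

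Adamts5 (ENSMUSG00000022894, chromosome 16, 85856173 to 85901828, minus strand, protein coding) encodes a main protease of aggrecan, which also cuts versican. It stood at 1.002, 0.980 and 0.737 FPKM in GFP-Rgnef libraries 1, 2 and 3 and at 3.53, 3.80 and 2.26 in the knockout libraries. The groups did not overlap, and library 3 was the lowest of each. The means were 0.906 ± 0.147 with GFP-Rgnef and 3.20 ± 0.823 FPKM without (SD, n = 3), from 103 to 138 reads against 306 to 535. The fitted log2 difference was 1.12 (SE 0.164, limma adjusted p = 0.00498). Adding 1 to values this low compresses the change, and with a pseudocount of 0.1 it was 1.69. Of the 11500 tested genes 120 had a larger difference in size. The call was kept with each of the 6 libraries left out in turn (limma adjusted p from 0.00179 to 0.0275, differences from 1.01 to 1.29). On chromosome 16, 3.91% of 358 tested genes were called higher and 6.98% lower.

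Adamts1 (ENSMUSG00000022893, chromosome 16, 85793827 to 85803113, minus strand, protein coding) encodes a protease of versican and of thrombospondins, and lies 53059 bases from Adamts5. It stood at 84.4, 68.2 and 31.8 FPKM in GFP-Rgnef libraries 1, 2 and 3 and at 168, 171 and 69.7 in the knockout libraries. Library 3 was far below the others in each group, and knockout library 3 fell within the range of the GFP-Rgnef libraries, so the groups overlapped. The means of 61.5 ± 27.0 and 136 ± 57.6 FPKM (SD, n = 3) differed by 2.21-fold, and the difference of 1.14 (SE 0.419, limma adjusted p = 0.117) did not pass the test. With both libraries numbered 3 left out, where 20.2% of all tested genes were called, it was 1.15 (SE 0.093, limma adjusted p = 0.000163). Without knockout library 3 alone it was 1.56 (limma adjusted p = 0.0266), and with any other library left out it was 0.73 to 1.42 and was not called. With the library number fitted as a block it was 1.14 (SE 0.070, limma adjusted p = 4.04e-06). In that setting 1517 of all tested genes were called higher and 1253 lower. Among the mesothelial markers, Upk3b, picked after its values were seen, also had library 3 far below the others, at 120, 115 and 42.6 FPKM with GFP-Rgnef and 319, 318 and 116 without (not called, limma adjusted p = 0.0878). Krt18, the marker called, went the other way (-0.51), and the part of these markers in the Adamts1 values was not tested.

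**Figure D2:**
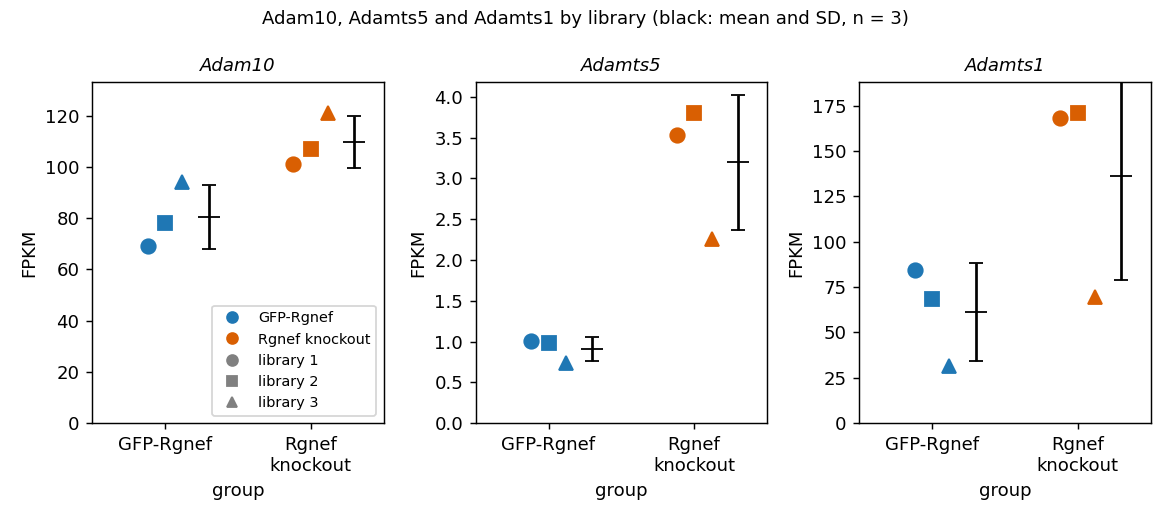
FPKM of Adam10, Adamts5 and Adamts1 on linear axes that start at 0, for GFP-Rgnef (blue) and knockout (orange) libraries, the shape giving the library number and the black bars the mean and SD (n = 3). Library 3 is the highest of each group for Adam10 and the lowest for Adamts5 and Adamts1, and knockout library 3 of Adamts1, at 69.7 FPKM, lies between GFP-Rgnef libraries.

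The other 3 ADAMTS members averaged below 0.5 FPKM and were not tested. Adamts9 (ENSMUSG00000030022, chromosome 6, 92772699 to 92943492, minus strand), a protease of versican and aggrecan, stood at 0.131, 0.0700 and 0.219 FPKM with GFP-Rgnef and at 0.495, 0.192 and 0.678 without, from 5 to 17 reads against 15 to 51. Its groups overlapped by 2 libraries, GFP-Rgnef 3 and knockout 2. Adamts4 (ENSMUSG00000006403, chromosome 1, 171250421 to 171260637, plus strand), the other main aggrecan protease, stood at 0.0703, 0.0602 and 0.0277 FPKM with GFP-Rgnef and at 0.0799, 0.0138 and 0.0572 without, a total of 22 reads over 6 libraries. Adamts12 (ENSMUSG00000047497, chromosome 15, 11064790 to 11349231, plus strand), a protease of the cartilage matrix protein COMP, was listed at 0 in 5 libraries and at 0.00958 FPKM in knockout library 3, 1 read under the same assumption as for Adam12.

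In order of FPKM the GFP-Rgnef libraries had Adam9 first, at 100.5 ± 2.98, then Adam10 at 80.5 ± 12.6 and Adamts1 at 61.5 ± 27.0, then Adam17 at 32.7 ± 1.18, Adam15 at 23.05 ± 1.94 and Adamts5 (SD, n = 3). Adam10 and Adamts1 overlapped, as did Adamts1 and Adam17. In the knockout libraries Adamts1 came first and overlapped with Adam10 (110 ± 10.2), which overlapped with Adam9 (105 ± 4.44). Adam9 was apart from Adam17 at 31.2 ± 1.19, followed by Adam15 at 20.8 ± 2.18 and Adamts5, each apart from the next. The length behind an FPKM matters for such an order. For 11089 of the 19655 genes above 0 the recovered length was the mean length of the annotated transcripts, short fragments included, which raises genes with many short transcripts. Of the members this held for 3, Adam15, Adamts1 and Adamts4. For the others, Adam9 and Adam10 included, the length was the smallest that gave whole reads. For Adam10 that length, 2191 bases, was next to the mean of its annotated transcripts, 2190 bases. Per length of the longest annotated transcript Adam10 stood at 38.4 ± 6.02 with GFP-Rgnef and 52.4 ± 4.84 without, below Adam9 at 97.2 ± 2.88 and 102 ± 4.30, and Adam9 was then the highest member in both groups. The ratio of a gene's group means does not depend on this length, but its log2(FPKM + 1) difference and whether it was tested do, most of all for low genes.

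**Figure D3:**
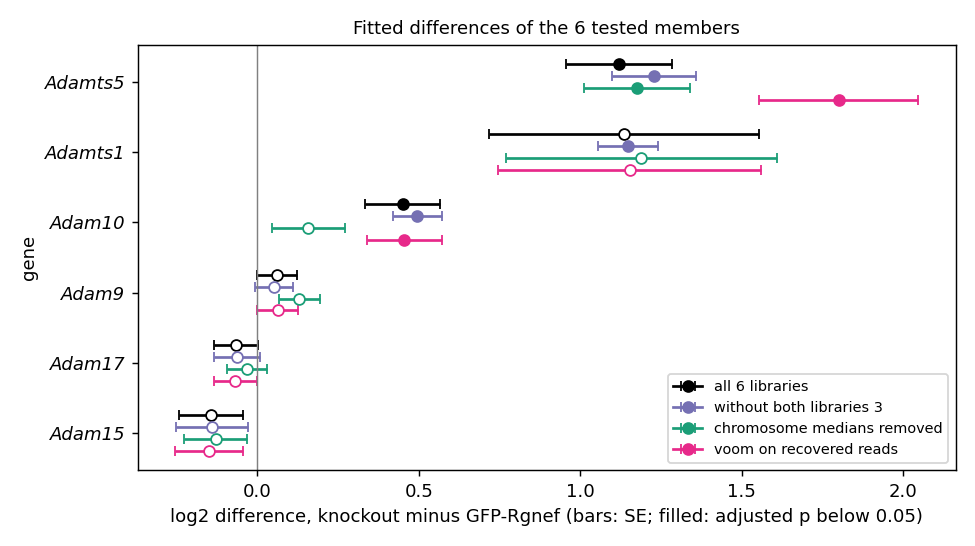
Fitted log2 differences (knockout minus GFP-Rgnef, bars SE) of the 6 tested members in all 6 libraries (black), without both libraries numbered 3 (purple), with chromosome medians removed (green) and by voom on recovered reads (pink), filled where the adjusted p was below 0.05. Adamts5 is filled in all 4 settings, Adam10 loses its call with chromosome medians removed, and Adamts1 has a narrow error only without the libraries numbered 3.

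Beyond the 10 members, 49 other ADAM, ADAMTS and ADAMTS-like genes were in the table, of which 20 were at 0 in every library and 8 were tested. Of the 8 tested, 2 were higher in the knockout libraries and 1 was lower, all ADAMTS genes, against 8.04% higher and 5.34% lower over all tested genes. Adamts3, a procollagen N-proteinase that also processes the lymphatic growth factor VEGFC, stood at 1.29, 1.27 and 0.932 FPKM with GFP-Rgnef and at 2.80, 3.40 and 2.10 without. Its groups did not overlap (difference 0.79, SE 0.153, limma adjusted p = 0.0140), and the call was lost without knockout 2. Adamts7, a protease of COMP, stood at 1.91, 2.02 and 1.54 FPKM with GFP-Rgnef and at 4.85, 3.16 and 3.46 without (0.76, SE 0.150, limma adjusted p = 0.0150). Adamts7 lies on chromosome 9, its exons share 122 bases with Tbc1d2b, and with chromosome medians removed it was 0.47 (limma adjusted p = 0.102). Adamts14, another procollagen N-proteinase, went the other way, from 4.04, 4.10 and 2.46 FPKM to 1.90, 1.07 and 1.60 (-0.84, SE 0.189, limma adjusted p = 0.0243). This call was lost without GFP-Rgnef 1, GFP-Rgnef 2 or knockout 2. Adam8, a sheddase of leukocytes, was the only other ADAM gene with enough RNA for the test, and its groups overlapped (0.03, SE 0.174).

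Proteins that activate, carry, bind or inhibit these proteases were about as often higher as lower, with 3 of 23 tested higher and 3 lower (median 0.01). Over all tested genes 8.04% were higher and 5.34% lower. Timp3, the tissue inhibitor known to act on ADAM17, ADAM10 and the aggrecan proteases, stood at 147, 157 and 178 FPKM with GFP-Rgnef and at 281, 287 and 231 without (0.72, SE 0.103, limma adjusted p = 0.00446). Pacsin3, which binds the tail of ADAM12, rose from 3.21, 3.04 and 3.28 FPKM to 6.19, 5.98 and 6.09 (0.76, SE 0.087, limma adjusted p = 0.00198), and Snx33 on chromosome 9 rose too (0.49, SE 0.087, limma adjusted p = 0.0101), but not with chromosome medians removed (0.20, limma adjusted p = 0.221). Tspan5, a tetraspanin that escorts ADAM10 to the membrane, fell from 62.8, 63.6 and 60.1 FPKM to 48.7, 49.1 and 49.0 (-0.34, SE 0.060, limma adjusted p = 0.00931), a call lost without GFP-Rgnef 2. Mad2l2, a binder of the ADAM9 tail, fell by 0.46 (SE 0.081, limma adjusted p = 0.00923), and Fbln1, a matrix cofactor of ADAMTS1, fell by 0.58 (SE 0.094, limma adjusted p = 0.00693).

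Of 38 tested genes for membrane proteins that ADAM proteases shed, 8 were higher and 6 lower in the knockout libraries (median -0.01). The shares over all tested genes were 8.04% and 5.34%, and the list, chosen with earlier results known, was not tested. Cdh2, N-cadherin, which ADAM10 sheds, had the largest difference (2.03, SE 0.085, limma adjusted p = 1.30e-05), and its knockout libraries at 44.0 to 44.5 FPKM lay far above the 9.11 to 11.2 of the GFP-Rgnef libraries. Nrg1, a ligand of ERBB receptors, rose from 3.86, 2.96 and 2.75 FPKM to 6.22, 5.98 and 5.91 (0.76, SE 0.117, limma adjusted p = 0.00592), and its exons share 482 bases with Gm26578. Met, Csf1 and Icam1 also rose, by 0.57, 0.76 and 0.90 (limma adjusted p from 0.00131 to 0.00419). Icam1 lies on chromosome 9 and kept its call with chromosome medians removed (0.61, limma adjusted p = 0.0211). The membrane chemokines Cx3cl1 and Cxcl16, both shed by ADAM10, fell by 1.06 and 0.77 (limma adjusted p = 0.00404 and 0.00471), although exons of Cxcl16 share 552 bases with Zmynd15. The ADAM17 substrates Tgfa, Tnfrsf1a and Tnfrsf1b fell by 0.50, 0.41 and 0.31 (limma adjusted p from 0.00671 to 0.0361). The Tnfrsf1a call was kept with 2 of the 6 libraries left out in turn and the Tnfrsf1b call with 1. Shedding itself acts on proteins and was not measured here.

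Of 11 tested genes for matrix proteins that ADAMTS proteases cut, 2 were higher and 2 lower (median 0.39), against 8.04% and 5.34% over all tested genes. Thbs1, thrombospondin-1, stood at 4.10, 4.93 and 3.91 FPKM with GFP-Rgnef and at 8.72, 9.75 and 6.75 without (0.82, SE 0.139, limma adjusted p = 0.00835). Fbn1, fibrillin-1, rose from 1.63, 1.71 and 2.55 FPKM to 3.89, 3.65 and 2.81 (0.59, SE 0.155, limma adjusted p = 0.0414). Dcn, decorin, fell from 63.6, 69.7 and 43.4 to 38.8, 36.4 and 23.3 FPKM (-0.83, SE 0.220, limma adjusted p = 0.0426), with library 3 the lowest of each group, and Fbln1 fell as given above. The Fbn1 call was kept with 2 of the 6 libraries left out in turn and the Dcn call with 1. With any single library left out, 1 to 4 of these genes were higher and 1 to 2 lower.

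**Figure D4:**
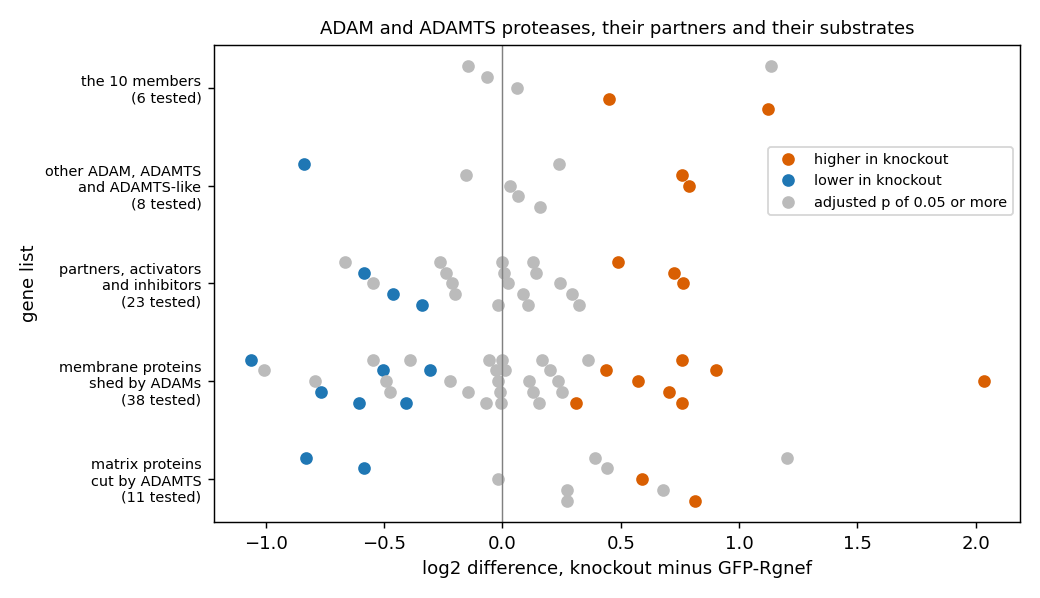
Log2 differences (knockout minus GFP-Rgnef) of the tested genes of 5 lists, orange where higher in knockout, blue where lower and grey where the adjusted p was 0.05 or more; the vertical position within a list only separates the points. The members have 2 orange and 0 blue points, while the lists of partners and of shed proteins have points on both sides.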

How the data were processed

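The authors deposited 1 table of FPKM values for 6 libraries, and the submitters' processing notes name CASAVA 1.8, TopHat2 2.0.9, DESeq2 and the build mm10. Annotation, counter and strand handling are not given in the sources used here. GENCODE M21 supplied symbols and positions for 34490 identifiers. For 11089 genes the values were whole reads within 0.02 at the mean length of the annotated transcripts, and for 118 at the exon length. For 8448 genes the smallest length that made them whole was taken, so wholeness there was fixed in advance. Among the members these were Adam9, Adam10, Adam12, Adam17, Adamts5, Adamts9 and Adamts12. The reads of all genes made up 99.75% to 99.78% of each implied depth. Differences were fitted on log2(FPKM + 1) by limma 3.58.1 (trended variance, R 4.3.3), with Benjamini-Hochberg adjustment over the 11500 genes averaging 0.5 FPKM or more. The fit was also run on simulated counts of independent libraries. These had no shift shared by libraries or along a chromosome, so that run could not check the fit under such shifts. Tables used Python 3.11.15.

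The members and lists were chosen with earlier results of these data known, so no list was tested. All members were named, and from each other list the called genes, at most 5 in each direction by p, filled with the 2 most abundant where fewer than 2 were called. Adam8 was named after its values were seen. Alternatives covered pseudocount, filter, scaling, trend, the replicate block, libraries left out, voom on recovered reads and chromosome medians.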

Additional observations from a re-analysis of the deposited data

How the results depend on the processing

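All tested members kept the sign of their difference in every alternative run. Adamts5 stayed called in all 16 of them, and Adam9, Adam15 and Adam17 in none. Adam10 was not called without a filter on low values (0.45, limma adjusted p = 0.0947), without limma's trend (0.45, limma adjusted p = 0.0638) and with chromosome medians removed (0.16), which left 1 member higher in each case, and with 1 library left out its difference was 0.35 to 0.57. The number of members higher was then 1 to 2. Adamts1 was 0.73 to 1.56 with 1 library left out and 1.15 without the libraries numbered 3.

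Same-numbered libraries deviated from their group means with correlations of 0.32, -0.02 and 0.55. The libraries numbered 3 had the highest correlation of any pair (0.55). GFP-Rgnef 2, however, correlated best with knockout 1 (0.40), so the numbers were not taken to pair the samples. The main fit has no term for what the libraries numbered 3 share, which stays in its errors. With the replicate block 1517 genes were higher and 1253 lower, and Adamts1 was called (1.14, limma adjusted p = 4.04e-06). In that run 6 partners were higher and 7 lower, 10 shed proteins higher and 12 lower, and 6 matrix proteins higher and 2 lower.

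Over all genes, 925 were higher and 614 lower in the main fit, and 494 and 388 with chromosome medians removed. There were 725 higher and 394 lower without a filter, and 1273 and 1048 without the libraries numbered 3. With 1 library left out, 455 to 850 were higher and 198 to 578 lower. Of the other ADAM and ADAMTS genes 1 was higher and 0 lower without a filter, and 1 higher and 1 lower with chromosome medians removed. With 1 library left out, 1 to 2 of them were higher and 0 to 1 lower. Of the shed proteins 8 were higher and 6 lower in the main fit, and 8 and 3 without a filter. Without the libraries numbered 3 they were 10 higher and 10 lower, and with 1 library left out 6 to 9 higher and 3 to 6 lower. Of the matrix proteins 5 were higher and 2 lower without the libraries numbered 3, and 1 higher and 1 lower without a filter or with chromosome medians removed. With TPM scaling 3 were higher and 1 lower, and without trend 2 were higher and 1 lower. With 1 library left out, 1 to 4 matrix proteins were higher and 1 to 2 lower. Over the members and the named genes of the other lists 46 values lost a call, 3 gained one and 0 reversed. Adam12, Adamts4, Adamts9 and Adamts12 averaged below 0.5 FPKM and have no result in the main fit. The cause of the changes between runs was not tested.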

Other observations

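Adamts1 and Adamts5 are neighbours on chromosome 16. In the window from 84793827 to 86901828 (GRCm38), chosen after the values were seen as both genes with 1000000 bases on each side, 3 other genes were tested and 0 were called by limma. App, the amyloid precursor protein and an ADAM10 substrate, differed by -0.14 (SE 0.069), Atp5j by -0.21 (SE 0.136) and Gabpa by 0.03 (SE 0.110).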
